A study of Mus musculus with 5 samples.

Results

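The regions described here were peaks of H2AK119ub, a ubiquitin mark on histone H2A, that lay between genes, carried no RYBP peak and were called in wild-type mouse embryonic stem cells but not in cells lacking DDX5. The members were selected on their width, their overlap with the other peak lists and their place relative to genes. A wild-type peak was a member when it was narrower than 5000 bp and lay on 1 of 17 autosomes (1 to 19 without 6 and 8). It had to overlap no knockout H2AK119ub peak and no wild-type RYBP peak by even 1 bp. Its centre had to fall outside every protein-coding gene and more than 2 kb from the end of any gene. Of 24235 wild-type peaks, 20521 were on the 17 autosomes, 19767 of those were narrower than 5000 bp, 4870 of those were intergenic and 4552 of those were free of RYBP. Of these 4552 peaks, 2973 had no knockout peak and were the members. They covered 3.5 Mb of the 45.9 Mb under all wild-type peaks.

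The study profiled H2AK119ub by chromatin immunoprecipitation and sequencing in wild-type cells of the line MPI-II and in a DDX5-/- line, and RYBP in the wild type. Both genotypes were grown on feeder cells in serum with LIF plus MEK and GSK3 inhibitors. For the knockout, a Cas9 nickase with a pair of guides cut exon 2 of Ddx5, and 1 clone was used. Each of these 3 groups had 1 library, and the 2 input libraries of the 5 samples were not analysed here. There was therefore no replicate check, no p-value is given, and the 95% intervals (Wilson for a share, Newcombe for a difference of shares) cover counting error only, with neighbouring peaks counted as if independent. The deposited lists held positions and no heights. Read depth is thus unknown, and the absence of a knockout peak cannot be told apart from a weaker signal or fewer reads in that library. A peak list holds no expression values, so the cell type, the feeder content and the loss of DDX5 were not checked. The knockout list held 20994 peaks and the RYBP list 9564. Positions are those of mm10, counted from 1.

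H2AK119ub is placed by Polycomb repressive complex 1, whose catalytic subunits are RING1A and RING1B. Variant forms of the complex hold RYBP or its paralog YAF2 beside RING1B, and RYBP can bind the ubiquitin mark itself. In embryonic stem cells the variant complex with PCGF1 and KDM2B is found at CpG islands, where the mark is dense at silent developmental genes, while complexes with PCGF3 or PCGF5 contribute to a thin layer of the mark across the genome. DDX5 is a DEAD-box RNA helicase with roles in transcription and RNA processing.

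The letters under a few members could be read where a member covered a whole RefSeq promoter window of 300 bases, from 250 before to 50 after a start site. This was so for 6 promoters, all of long non-coding RNA genes. Of these 6, 3 are shown to give the range of CpG dinucleotides, the letters that mark a CpG island when they are dense. The fourth sequence is the stretch of 250 bases before the start of Zc3h12a, a coding gene for an RNA-cleaving regulator of inflammation. It borders the same interval as Gm40247 and was covered by RYBP. Capitals mark each CpG, and all are written 5′ to 3′ on the strand of the gene, from RefSeq on GRCm38.p6.
Gm40247 (lncRNA), chr4:125385226-125385525, plus strand: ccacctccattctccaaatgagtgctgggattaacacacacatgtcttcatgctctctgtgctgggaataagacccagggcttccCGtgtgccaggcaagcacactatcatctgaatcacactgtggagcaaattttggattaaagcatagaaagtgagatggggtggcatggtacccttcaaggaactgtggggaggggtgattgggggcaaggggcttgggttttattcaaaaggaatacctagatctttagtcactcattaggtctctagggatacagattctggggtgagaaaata
Gm35853 (lncRNA), chr15:101377532-101377831, plus strand: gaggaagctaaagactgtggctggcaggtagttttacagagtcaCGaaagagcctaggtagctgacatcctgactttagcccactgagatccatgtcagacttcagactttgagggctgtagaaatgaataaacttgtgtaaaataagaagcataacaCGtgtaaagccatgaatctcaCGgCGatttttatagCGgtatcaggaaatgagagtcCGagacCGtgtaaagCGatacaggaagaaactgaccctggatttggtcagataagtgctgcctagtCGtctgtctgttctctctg
Gm36894 (lncRNA), chr12:112255309-112255608, plus strand: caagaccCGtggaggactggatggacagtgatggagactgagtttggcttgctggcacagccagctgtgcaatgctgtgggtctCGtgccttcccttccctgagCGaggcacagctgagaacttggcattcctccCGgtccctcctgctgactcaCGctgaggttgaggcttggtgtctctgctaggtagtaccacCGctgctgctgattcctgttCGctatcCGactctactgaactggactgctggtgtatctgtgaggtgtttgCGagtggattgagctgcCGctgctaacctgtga
Zc3h12a (coding), chr4:125127882-125128131, minus strand: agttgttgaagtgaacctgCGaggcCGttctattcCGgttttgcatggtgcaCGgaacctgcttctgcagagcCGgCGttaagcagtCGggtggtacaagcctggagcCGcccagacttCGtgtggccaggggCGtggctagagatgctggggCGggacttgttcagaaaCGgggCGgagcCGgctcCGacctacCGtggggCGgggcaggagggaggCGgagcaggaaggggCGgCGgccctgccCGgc

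The promoter of Gm40247 held 1 CpG and a GC content of 47.3%, inside a member of 3198 bp that lay 104.6 kb from Grik3. The promoter of Gm35853 held 9 CpG at a GC content of 45%, inside a member of 789 bp that lay 7.73 kb from the keratin gene Krt80. The promoter of Gm36894 held 10 CpG at a GC content of 57%, inside a member of 1554 bp that lay 73.9 kb from Kif26a. These 3 windows were poor in CpG beside the Zc3h12a stretch, which held 21 in its 250 bases. Wild-type H2AK119ub covered 53 of the 300 bases of the Zc3h12a promoter. The contrast depended on the gene shown. Promoters of other genes with many members held 61 (Med13l), 51 (Ajap1), 50 (Grik3), 23 (Rbm19), 7 (Adra2c) and 1 CpG (Cryba4) in 300 bases. Over the 6 promoters inside members, the number of CpG ran from 1 to 10 with a median of 5. The other promoters were those of Gm32316 with 4 CpG, Gm26868 with 5 and Gm31399 with 5. The median was 5 in the 9 promoters wholly inside intergenic RYBP-free peaks that were kept in the knockout, 6 in 205 inside RYBP-free wild-type-only peaks at genes, and 15 in 630 inside wild-type peaks with RYBP. Over 28061 promoters of the 17 autosomes it was 7. The members' promoters were thus close in CpG number to those under other RYBP-free peaks and held fewer than those under peaks with RYBP, although 6 promoters are few and all belong to non-coding genes. The E-box letters CACGTG (the same on both strands) were in 1 of the 6, that of Gm35853, and in 7.25% of all promoters. The letters CCGCCC, searched on both strands, were in 0 of the 6 and in 36.1% of all promoters. They were in 4 of the 9 inside kept peaks, 21% of the 205 at genes and 47% of the 630 with RYBP. The difference of members minus kept was -44.4 points (-73.3 to 2.22), an interval that includes 0. Both motifs are matches of letters in a window and show no binding.

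The members lacked a knockout peak by choice, and the share of their pool that they made up is given as a description. Of the 4552 intergenic RYBP-free peaks, 65.3% (63.9% to 66.7%) had no knockout peak, where the background over all 24235 wild-type peaks was 51.1%. Among RYBP-free peaks at or inside genes the share was 59.5% (58.6% to 60.4%), 6680 of 11233, so that the intergenic share was 5.84 points higher (4.18 to 7.49). With RYBP the shares were 33% (28.1% to 38.4%) of 318 intergenic peaks and 27.5% (26.1% to 29%) of 3664 at genes. Whether a peak had RYBP went with a difference several times that between intergenic and genic places, without matching for width.

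The share without a knockout peak fell with the width of the wild-type peak. It was 88.2% (85.1% to 90.7%) of intergenic RYBP-free peaks narrower than 800 bp, 77.9% of those from 800 to 1000 bp and 71.1% and 66.9% in the lower and upper part of the range from 1000 to 1500 bp. It was 51.3% from 1500 to 2000 bp, 31.4% from 2000 to 3000 bp and 17.2% (12.5% to 23.2%) from 3000 to 5000 bp. Narrow peaks were therefore mostly members and wide ones mostly kept. At genes the share fell in the same order, from 83.4% to 12.4%, and the intergenic share was the higher one in all 7 width classes, although the intervals overlapped in some of them.

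**Figure D1:**
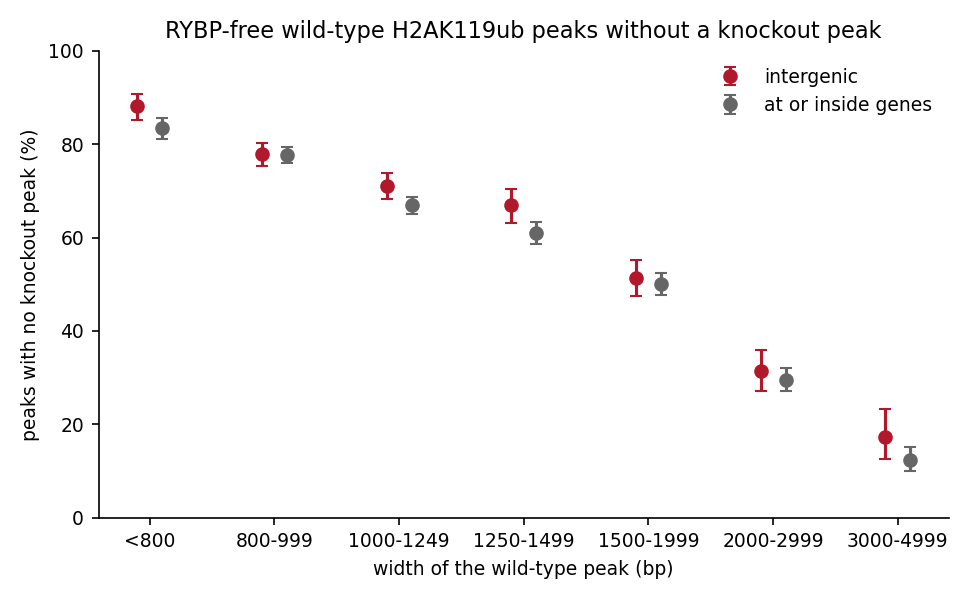
Percentage of RYBP-free wild-type H2AK119ub peaks that overlapped no knockout peak (vertical axis) by width of the wild-type peak in bp (horizontal axis), for intergenic peaks (red) and peaks at or inside genes (grey), with bars of 95% Wilson intervals. Both series fall with width, the intergenic one from 88.2% to 17.2%.

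The members were narrow. Their width ran from 475 to 4565 bp and their median was 1051 bp, with quartiles at 875 and 1343 bp. The median was 1461 bp (1075 and 2090 bp) for the 1579 intergenic RYBP-free peaks that were kept in the knockout. The 6680 wild-type-only RYBP-free peaks at genes had a median of 1092 bp (897 and 1418 bp). The 1801 intergenic RYBP-free peaks called in the knockout alone were narrower still, at 767 bp (629 and 957 bp). Of the members, 44.4% were narrower than 1000 bp and 5.58% wider than 2000 bp, against 19.5% and 28.4% of the kept peaks. Width, overlap and distance to genes entered the choice of members, and these values describe that choice. Kept did not mean whole: knockout peaks covered a median of 61.2% (39.8% and 83%) of a kept peak, and less than 50% of the peak in 571 of 1579.

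At the limits of the choice, the widest member had 4565 bp and the narrowest peak left out for its width alone had 5065 bp, 1 of 5 such peaks. The member nearest to a gene end lay 2001 bp away and the peak left out just short of the limit 1999 bp. The member nearest to a knockout peak adjoined it (a gap of 1 bp from last to first base), and the closest peak outside overlapped a knockout peak by 1 bp. The corresponding values for RYBP were a gap of 24 bp and an overlap of 12 bp.

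The widest member, at chr5:33479242-33483806, lay 47.4 kb from the start of Nkx1-1, a homeobox gene, and 9815 bp from the next knockout peak. The second widest, 4304 bp at chr16:18196973-18201276, lay 15.1 kb from Ccdc188 and 17467 bp from a knockout peak. The third, 4300 bp at chr17:27255597-27259896, lay 52.3 kb from Lemd2, which encodes a protein of the inner nuclear membrane. The gap of the third to a knockout peak was 8914 bp. All 3 gaps were longer than the members' median of 5011 bp, but only that of the second was above their upper quartile of 15344 bp. The next, 3969 bp at chr13:56064114-56068082, lay 7.52 kb beyond the end of Macroh2a1, which encodes a variant of histone H2A, and 37469 bp from a knockout peak. The other 6 of the 10 widest, of 3665 to 3913 bp, lay nearest to Optc, Bmp7, Grik3, Pdia5, Mrpl23 and Krt80. In contrast to the first 4, they had a knockout peak between 1816 and 3259 bp away. The member near Bmp7, a bone morphogenetic protein gene, at chr2:172819124-172823006, also had a RYBP peak 1.82 kb away.

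Members lay a median of 26399 bp from the nearest coding gene end (quartiles 9632 and 71011 bp) and 9359 bp (4700 and 18689 bp) from an end of any gene. Kept peaks lay at 25707 bp and 8519 bp, which is close. More than 100 kb from any coding gene end were 17.7% of members and 14.8% of kept peaks, a difference of 2.84 points (0.572 to 5.02). Of 2304 members whose nearest coding gene had a strand in the RefSeq promoter table, 51.2% (49.2% to 53.3%) lay beyond its start and the rest beyond its end, an interval that includes an even split. The 5 members farthest from any gene lay near Ndst4, Prdm2, Sox2, Slc24a5 and Hs3st3a1, at 116.1 to 172.9 kb from the nearest gene end of any kind. The one nearest to Sox2, a pluripotency factor, at chr3:35111629-35112631, was 459.7 kb from that gene and 2234364 bp from the nearest knockout peak. These 5 remote members were 690 to 1127 bp wide, where the median of all members was 1051 bp.

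Although no knockout peak overlapped a member, one was often close by. A knockout peak lay within 1 kb of 18.8% of members, within 2 kb of 30.6%, within 10 kb of 66% and within 100 kb of 94.5%. The median gap was 5011 bp (1447 and 15344 bp). Beside kept peaks, another knockout peak that did not overlap them lay within 2 kb for 54.5% and within 10 kb for 86.1%. The difference at 10 kb was -20 points for members minus kept (-22.4 to -17.6). Wild-type-only peaks at genes resembled the members here, with 67.1% within 10 kb and a difference of -1.05 points whose interval, -3.11 to 0.976, included 0. For RYBP the median gap was 32810 bp (11408 and 79850 bp), and a RYBP peak lay within 2 kb of 5.42% of members, against 9.5% of kept peaks and 8.83% of wild-type-only peaks at genes. The differences for members were -4.08 points (-5.81 to -2.48) against kept peaks and -3.42 points (-4.45 to -2.32) against those at genes. Members, unlike the peaks at genes, had to lie more than 2 kb from any gene end, and 34.8% of coding genes had RYBP at an end. The difference from peaks at genes thus cannot be told apart from the choice of members. In each of the 7 width classes the median gap to RYBP was longer for members than for kept peaks, for example 32024 against 21686 bp in peaks of 1500 to 2000 bp.

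The nearest other wild-type peak of a member was itself retained in the knockout in 38.5% (36.8% to 40.3%) of cases, against 60.9% (58.4% to 63.2%) for kept peaks and 51.6% (50.9% to 52.3%) for all wild-type peaks of the 17 autosomes. The difference from kept peaks was -22.3 points (-25.3 to -19.3). Wild-type-only peaks at genes had 39.5%, and their difference from members, -0.944 points (-3.04 to 1.17), included 0. The gap between members and kept peaks was seen in each of the 7 width classes, for example 40.5% against 57.7% from 800 to 1000 bp and 37.8% against 63.4% from 1500 to 2000 bp. A peak and its neighbour thus tended to share the same state in the knockout. The sets were not matched for the gap to that neighbour, a median of 2517 bp for members and 626 bp for kept peaks. The 51.6% includes peaks with RYBP and peaks of 5000 bp or more. Of members, 45.8% had another member as nearest wild-type peak, so the neighbours of many members are members too and these cases are counted from both sides. Wild-type peaks with RYBP within 100 kb of a member were retained in 79.5% (77.6% to 81.2%) of 1947 cases, against 75.2% (73.9% to 76.4%) of all 4489 on these chromosomes. Around kept peaks the share was 83.6% (81.5% to 85.5%), which left members lower by -4.17 points (-6.83 to -1.44), and around knockout-only peaks it was 81.3%. Peaks with RYBP near members were therefore retained more often than all such peaks and less often than those near kept peaks.

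Members came in groups, as did kept peaks and wild-type-only peaks at genes. Another member lay within 1 kb of 18.3% of them, within 10 kb of 52.9% and within 100 kb of 83.6%. Another kept peak lay within 1 kb of 32.6% of kept peaks, within 10 kb of 60.9% and within 100 kb of 83%. For wild-type-only peaks at genes the values were 21.5%, 59.4% and 89%, and for knockout-only peaks 11.1%, 36.1% and 73.3%. Counting consecutive wild-type peaks that were all members as a run, 1009 members stood alone and 1246, or 41.9%, were in runs of 3 or more. The longest run, 12 peaks over 666.2 kb at chr2:178712942-179379127 between Cdh26, a cadherin gene, and 4930591A17Rik, was also the thinnest. Its peaks were 610 to 1199 bp wide, and 3 knockout peaks lay among them. A run of 11 peaks over 52.9 kb at chr5:35164485-35217369 lay near Adra2c, an adrenergic receptor gene, and Lrpap1, with 3 knockout peaks among them. A run of 10 over 54 kb at chr4:125793886-125847902 lay beyond Grik3, with 1 knockout peak.

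In 2 dense runs, a stretch with many wild-type peaks held none from the knockout. At chr2:165522866-165551997, beside the glucose transporter gene Slc2a10, 10 members covered 13.7 kb of 29.1 kb. In order their widths were 1993, 1064, 916, 850, 1878, 2029, 1172, 1335, 1634 and 808 bp. No knockout or RYBP peak lay in that stretch, but 9 knockout peaks and 1 RYBP peak lay within 40 kb of it, some of them over Slc2a10. At chr5:120242780-120266680, 44.9 kb beyond Rbm19, a gene for an RNA-binding protein of ribosome assembly, 9 members covered 14.8 kb of 23.9 kb. Their widths in order were 2247, 1773, 1188, 747, 1841, 1226, 681, 2408 and 2664 bp. No knockout or RYBP peak lay among these either, while 14 knockout peaks and 2 RYBP peaks lay within 40 kb. Members overlap no knockout or RYBP peak by choice, so only the bases between members could have held one. Of the 5 longest runs, these 2 were the ones without a knockout peak among their members. Knockout peaks lay on both sides of each.

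**Figure D2:**
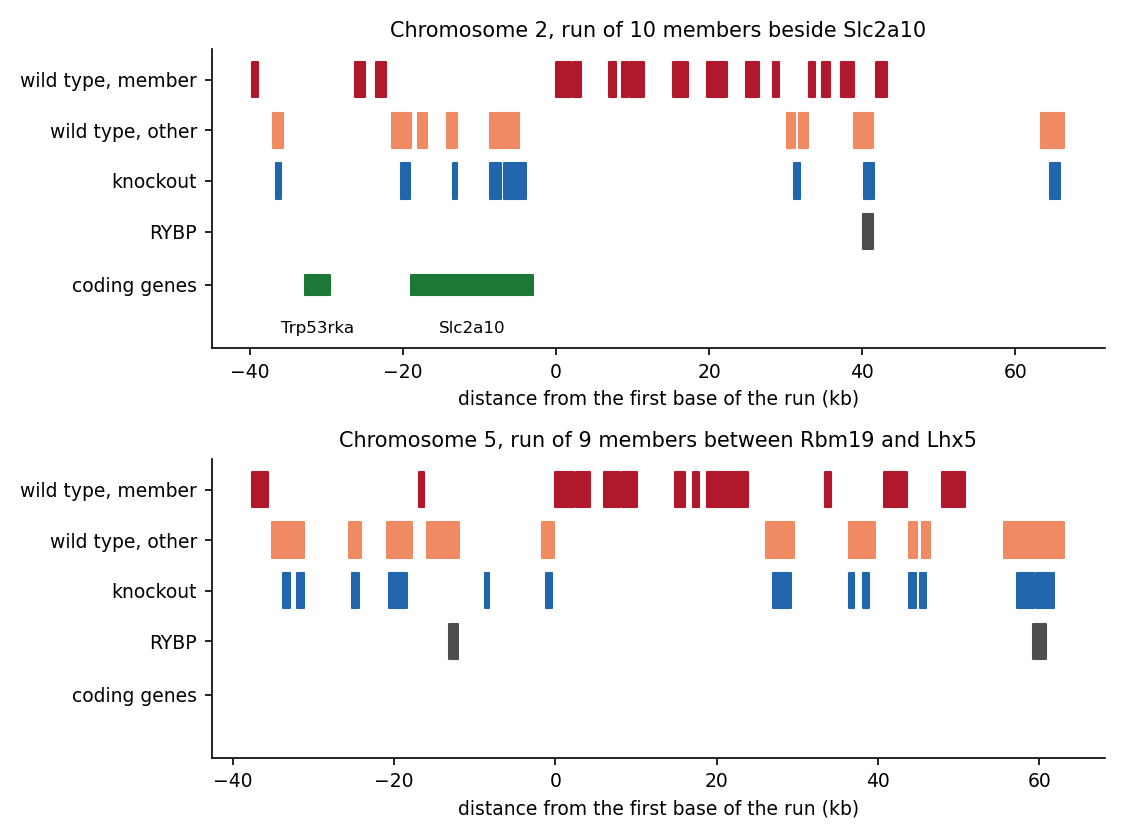
Positions of peaks around the runs of 10 members beside Slc2a10 (top) and 9 members between Rbm19 and Lhx5 (bottom), in kb from the first base of each run, with 40 kb shown on either side. Rows hold wild-type H2AK119ub peaks that are members, other wild-type H2AK119ub peaks, knockout H2AK119ub peaks, RYBP peaks and coding genes (none in the bottom map); 0 knockout peaks lie within the runs and 9 and 14 lie around them.

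By chromosome the members were uneven. Chromosome 4 held 452, chromosome 2 held 418 and chromosome 5 held 410, together 43.1% (41.3% to 44.8%) of members, against 33.6% (33% to 34.3%) of all wild-type peaks under 5000 bp on the 17 autosomes. The kept peaks were placed in the same way, with 41.3% (38.9% to 43.7%) on these 3 chromosomes, whose choice used the members' own numbers. Per Mb between the first and the last gene, chromosome 4 held 2.89 members and chromosome 3 held 0.331, the 2 extremes. The share of intergenic RYBP-free peaks without a knockout peak varied less, from 56% (49.6% to 62.3%) of 232 on chromosome 15 to 82.7% (70.3% to 90.6%) of 52 on chromosome 14. It was 76.6% (71% to 81.5%) of 248 on chromosome 9 and 64.7% (61% to 68.1%) of 699 on chromosome 4.

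**Figure D3:**
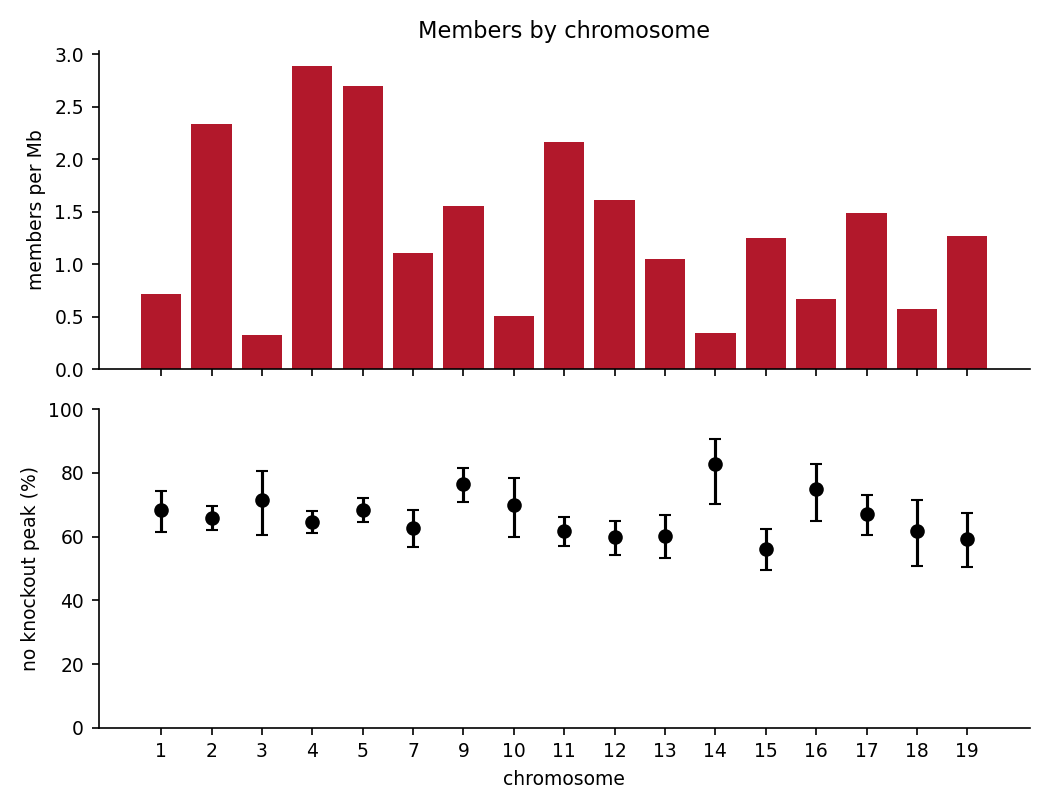
Members per Mb (top, bars from 0) and percentage of intergenic RYBP-free wild-type peaks with no knockout peak (bottom, points with 95% Wilson intervals) for each of the 17 autosomes. The density runs from 0.331 to 2.89 per Mb, while the percentage stays between 56% and 82.7%.

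Between neighbouring coding genes lay 16570 intervals, of which 1092 (6.59%) held a member, and 594 of these held exactly 1. Intervals with a member were long, with a median of 66460 bp against 14301 bp for the others, and made up 13.5% of the length of all intervals (173.3 of 1283 Mb). They also held 83.8% (81.9% to 85.5%) of the kept peaks and 74.2% (72.2% to 76.2%) of the intergenic RYBP-free peaks called in the knockout alone. Most kept and knockout-only peaks thus lay in intervals that also held a member. Counted by interval the sharing was smaller: 379 of the 1092 intervals with a member (34.7%, 31.9% to 37.6%) also held a kept peak, and these were 65.8% of the 576 intervals with a kept peak. The 10 intervals with the most members held 317, or 10.7%, and the first 100 held 41.8%. For kept peaks the shares were 16.2% in the 10 intervals that held the most of them and 55.7% in the first 100. Kept peaks were fewer and lay in fewer intervals, so these shares do not show which set was more concentrated.

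The interval between Mn1, a transcriptional co-regulator gene, and the lens crystallin gene Cryba4, chr5:111457031-112246491, held 65 members and 40 kept peaks. Its total was 142 wild-type peaks, 79 knockout peaks and 4 RYBP peaks. Between Zc3h12a and the kainate receptor gene Grik3, chr4:125127882-125490258, there were 36 members and 19 kept peaks. Between Rbm19 and Lhx5, a homeobox gene of the developing brain, chr5:120198972-120431885, there were 30 members and 16 kept peaks. These 3 intervals had nearly equal shares without a knockout peak, at 61.9%, 65.5% and 65.2%, and the last was the densest of the 10 at 12.9 members per 100 kb. The others of the 10 were Nphp4 to Ajap1 with 30 members, Ajap1 to A430005L14Rik with 28, Grik3 to Csf3r with 27, Rragc to Pou3f1 with 26, and Sdk2 to Rpl38, Matn1 to Ptpru and Med13l to Tbx3 with 25 each. Of the 10 intervals, 6 lay on chromosome 4, most of them around Grik3 and Ajap1.

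The share without a knockout peak varied among the 100 intervals with 10 or more intergenic RYBP-free peaks, from 18.2% to 100% with a median of 60% (46.2% and 73.8%). All 18 such peaks from Cdh26 to 4930591A17Rik were members (100%, 82.4% to 100%), as were all 10 from Ubl3 to Katnal1 (72.2% to 100%). From Matn1, a cartilage matrix gene, to Ptpru, a receptor phosphatase gene, 25 of 30 were members. At the other end were Polg to Rhcg with 2 of 11 (18.2%, 5.14% to 47.7%), and Gadd45g to Diras2 with 8 of 29 (27.6%, 14.7% to 45.7%). In that last interval there were 38 peaks called in the knockout alone, and knockout peaks outnumbered wild-type ones by 64 to 33. These intervals were named because they were at the extremes.

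**Figure D4:**
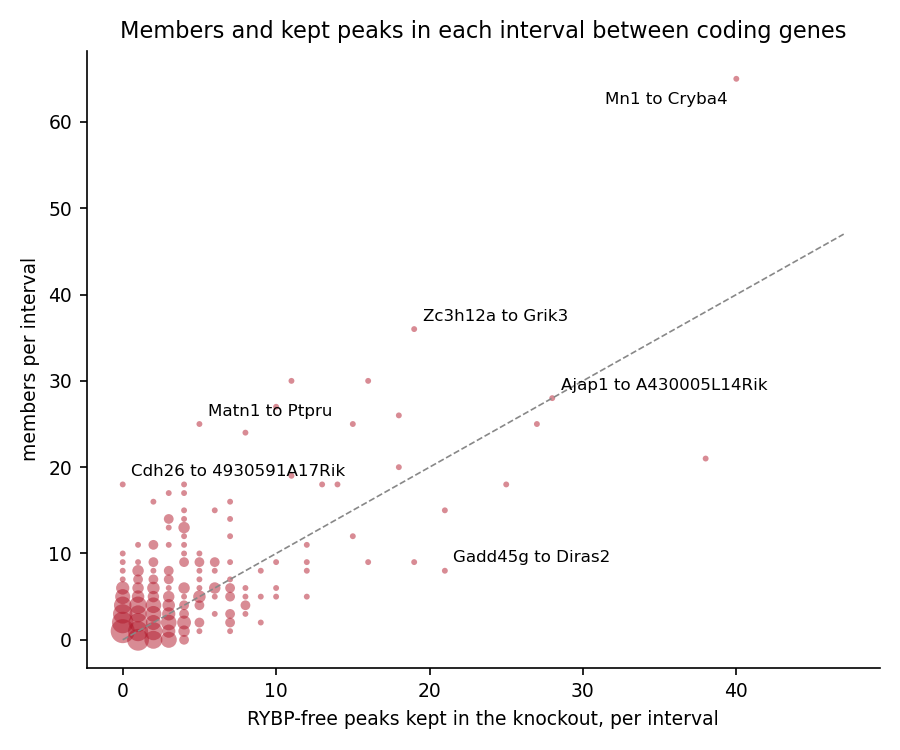
Number of members (vertical axis) against number of intergenic RYBP-free peaks kept in the knockout (horizontal axis) in each interval between coding genes that held either, with larger points for more intervals and a dashed line of equal numbers. Mn1 to Cryba4 stands highest with 65 members and 40 kept peaks, while Cdh26 to 4930591A17Rik has 18 and 0.

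In windows of 1 Mb the same places stood out. The window chr4:125000001-126000000 held 62 members and 126 wild-type peaks in all, against 70 knockout peaks, and the mark covered 243.3 kb in wild-type and 74.1 kb in knockout cells. Members made up 99 kb of the former. The window chr5:111000001-112000000 held 52 members, with 270.4 kb covered in wild-type and 113.2 kb in knockout cells. The window chr4:153000001-154000000 held 45 members and about as many knockout peaks (111) as wild-type ones (110). Of the knockout peaks, 42 were intergenic, RYBP-free and without a wild-type peak. The mark covered 161.5 kb there in wild-type and 114.3 kb in knockout cells. The other 2 of the first 5 were chr12:112000001-113000000 with 42 members and chr9:43000001-44000000 with 41. The former also held 47 kept peaks, with 436.4 kb covered in wild-type and 240.4 kb in knockout cells. In the latter the values were 128.6 and 50.5 kb. The windows were chosen for their number of wild-type-only peaks, so a longer wild-type cover is partly built in.

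Marked here means that a coding gene had a peak within 2 kb of its start or end, with members themselves left out. The members had 1261 nearest coding genes. Of these, 808 (64.1%, 61.4% to 66.7%) were marked in the wild type, against 24.4% of the 18496 coding genes of these chromosomes. In the knockout 734 (58.2%, 55.5% to 60.9%) were marked, against 19.9%, and 755 (59.9%, 57.1% to 62.5%) had RYBP, against 34.8%. Although the members carried no RYBP, their nearest genes had it 25.1 points (22.2 to 27.8) more often than coding genes in general. This held for intergenic RYBP-free peaks of every kind. Genes next to kept peaks had higher shares, with 76.4% marked in the wild type, 72.2% in the knockout and 67.2% with RYBP, and genes next to knockout-only peaks had similar ones, at 63.9%, 59.7% and 60.6%. Among the genes next to members, 260 (20.6%) had neither H2AK119ub nor RYBP at an end.

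Marked genes beside members mostly kept the mark. Of the 808 genes marked in the wild type, 691 (85.5%, 82.9% to 87.8%) were also marked in the knockout, against 69.7% of all 4519 marked genes, a difference of 15.8 points (12.9 to 18.5). Genes next to kept peaks had 91.4% (88.6% to 93.6%) and those next to wild-type-only peaks at genes 62.6% (60.6% to 64.5%), a set in which the same peaks can lie at the gene's own ends. Genes next to members had more of the mark to begin with, so the share was also taken within 4 classes of covered length. With 4 to 1154 bp of wild-type mark, 49.1% (39.9% to 58.3%) of genes next to a member were also marked in the knockout, against 35.3% (32.4% to 38.3%) of other genes. In the higher classes the values were 76.2% against 61.5%, 89.4% against 80.5% and 98.6% against 95.8%. The share was higher beside a member in all 4 classes, and in the highest class nearly every gene of both kinds was marked in the knockout.

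**Figure D5:**
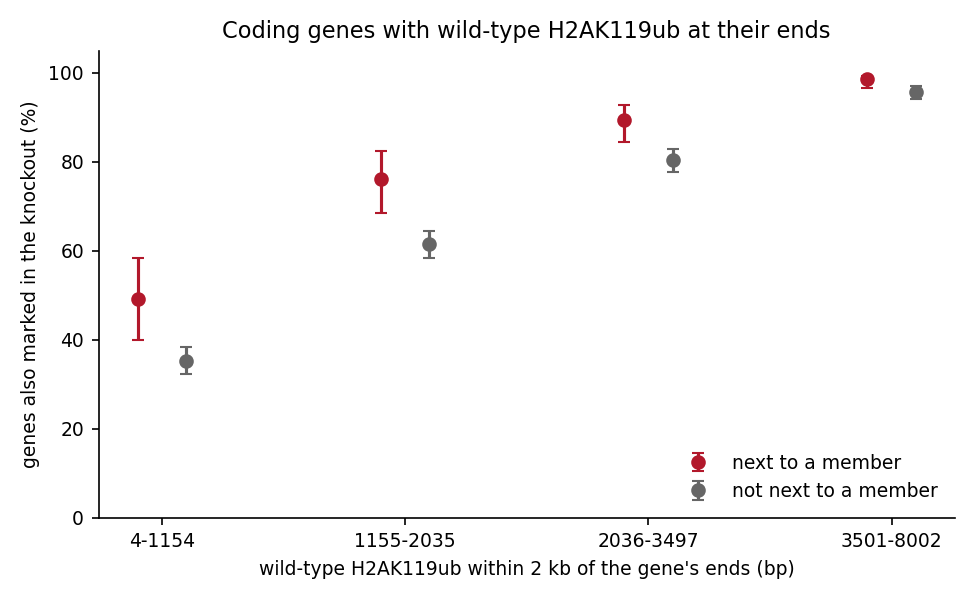
Of coding genes with the mark in the wild type, the percentage also marked in the knockout (vertical axis), by bp of wild-type H2AK119ub within 2 kb of the gene's ends (horizontal axis), for genes that are (red) or are not (grey) the nearest gene of a member, with bars of 95% Wilson intervals. The red points lie above the grey ones in all 4 classes, from 49.1% against 35.3% to 98.6% against 95.8%.

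Most nearest genes had few members: 722 of 1261 had exactly 1, and 35 had 10 or more, which took 559 members. Mn1 had 39 members between 8.66 and 387.8 kb from its ends, and the mark at its own ends covered 7006 bp in wild-type and 4215 bp in knockout cells, with 3266 bp of RYBP. Grik3 had 36, with 3859 bp of the mark at its ends (wild type) against 3589 bp (knockout). Ajap1, a gene for a junction protein, had 30, with 3420 and 3526 bp. At Mn1 the covered length was shorter in the knockout, while at Grik3 and Ajap1 it was close in both genotypes. Pou3f1, a neural POU homeobox gene, had 17 members and 6162 bp in the wild type against 6220 bp in the knockout. Adra2c also had 17, with 6346 and 6133 bp. Cryba4 had 27, with 3723 and 2437 bp. The mark at the ends was mostly gone from the knockout list at Rbm19, with 23 members and 2330 against 550 bp, and at Zc3h12a, with 18 members and 2365 against 99 bp. Med13l, a gene of the Mediator kinase module, had 23 members, 0 bp (wild type) against 861 bp (knockout). Nectin1, a cell adhesion gene, had 19 members and no peak of H2AK119ub or RYBP at its ends.

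Developmental regulators were frequent among the nearest genes. Over all 18496 coding genes 6.82% (6.46% to 7.19%) were next to a member, and 3.46% next to a kept peak. Of 86 homeobox regulators other than Hox genes, 42 (48.8%, 38.6% to 59.2%) were next to a member. Among these 42, 41 were marked in each genotype and 40 had RYBP. Besides Pou3f1 they included Lhx5 with 13 members (5241 bp of the mark at its ends in the wild type, 5173 bp in the knockout) and the muscle regulator Pax7 with 11 (3937 and 4837 bp). Of 68 forkhead, Sox, T-box and GATA factors, 23 (33.8%) were next to a member, led by Sox9, a cartilage and gonad regulator, with 7 (5183 and 4010 bp) and Tbx5, a heart and limb regulator, with 6 (4964 and 2386 bp). Of 59 basic helix-loop-helix and zinc finger lineage factors, 18 (30.5%) were, led by Tshz2 with 8 (1629 and 0 bp). The kept peaks lay next to 35 of the 86, 18 of the 68 and 18 of the 59, so nearness to developmental regulators was not shown to set members apart from kept peaks.

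Of 86 genes of Wnt, FGF, BMP, Hedgehog and Notch signals, 18 (20.9%) were next to a member, and all 18 were marked in both genotypes. Bmp7 had 14 members (5444 and 3953 bp of the mark at its ends, wild type first), Wnt4 had 9 (3675 and 4674 bp) and Inhbb, an activin subunit gene, had 7 (5894 and 5607 bp). Of 28 Hox genes, 27 were marked in the wild type. Next to a member were 4 of the 28 (14.3%, 5.7% to 31.5%), an interval that includes the 6.82% of all coding genes. Next to a kept peak were 6 (21.4%). Hoxb1 and Hoxb13 had 2 members each, and Hoxc13 had 2 with no mark at its ends.

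Of 176 genes of ion channels and neurotransmitter receptors, 27 (15.3%) were next to a member, with Grik3 first and then Kcng1 with 12 (5093 and 6084 bp). Of 54 axon guidance genes 10 were, with Ephb3, a receptor gene, at 4. Kept peaks lay next to 12 of the 176 and 4 of the 54. Of 22 imprinted genes 6 (27.3%) were next to a kept peak. Next to a member were 10 (45.5%, 26.9% to 65.3%). These were led by Dlk1 with 11 members (5281 and 3275 bp) and Dio3 with 9 (4989 and 4836 bp), which share an imprinted region of chromosome 12. The growth factor gene Igf2 had 6 (7172 and 5279 bp).

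Of 9 pluripotency genes 4 were next to a member, of which 1 was marked in wild-type cells and none in the knockout. Next to a kept peak was 1 of the 9. Of all 9, 3 were marked in wild-type cells and 2 in the knockout. Esrrb had 4 members within 5.54 to 62.3 kb, no kept peak, and 1983 bp at its ends in the wild type against 0 bp in the knockout. Tbx3 also had 4, at 314.1 to 445.7 kb, and Klf4 had 1 at 120.2 kb. Neither had the mark at its ends in either genotype, and both had RYBP there (2329 and 1603 bp). The fibroblast and feeder list, given because feeder cells were in the culture, had 4 of 13 genes next to a member, led by Thy1 with 11 (4114 and 2391 bp). All 4 were marked in both genotypes, and what feeder cells contribute to the members was not tested. Kept peaks also lay next to 4 of the 13.

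In 4 further lists the interval included the 6.82% of all coding genes. Next to a member were 4 of 82 cadherin genes (4.88%, 1.91% to 11.9%), 16 of 346 zinc finger genes named Zfp (4.62%, 2.87% to 7.38%), 1 of 17 germline genes (5.88%, 1.05% to 27%) and 0 of 21 housekeeping genes (0% to 15.5%). The share was below that of all genes among olfactory and vomeronasal receptors. Among 1363 olfactory and vomeronasal receptor genes 4 (0.293%, 0.114% to 0.752%) were, and of those 4 none was marked in the wild type.

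Non-coding genes contained 511 members (17.2%, 15.9% to 18.6%) at their centres, against 19.4% of kept peaks, a difference of -2.19 points (-4.6 to 0.147). These were 320 genes, of which 22 carry a name other than a predicted one. Gm32611, a long non-coding RNA gene between Zc3h12a and Grik3 that was picked after its value was seen, contained 16 members with 26.6 kb in all. Of genes with a name, Zmiz1os1 contained 5. Nctc1, a muscle-expressed RNA gene near Igf2, contained 2, as did Mirt1, Mm2pr, Carmn and Pantr1.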

How the data were processed

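H2AK119ub was profiled in 2 genotypes and RYBP in the wild type, with 1 library each, and groups were taken from the sample titles. Per the submitters' processing notes, the tools included Bowtie2 2.2.5 and MACS 1.4 and the build was mm10. Their settings and any use of the inputs as controls were not stated in these sources. From each library the authors deposited a separate peak list, which gives the chromosome, start and end of each peak. The deposited score is 0 for every peak and was not used, so depth and height are unknown and absence from a list can reflect either.

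Overlap was at least 1 bp. Distances to genes ran from the peak centre. Gaps between peaks ran from the last base of one to the first base of the next, so peaks that adjoin have a gap of 1 bp. Genes (49554, of which 21631 protein-coding) and promoter sequences came from RefSeq tables for the assembly GRCm38.p6, which shares its coordinates with mm10. Intervals lay between consecutive coding genes. The nearest coding gene was the one with the end closest to the peak centre. Wilson and Newcombe intervals were computed in Python 3.11.15, and the code was tested on simulated peaks. The comparison sets were kept peaks, wild-type-only peaks at genes and knockout-only peaks, all RYBP-free and narrower than 5000 bp.

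The members, gene lists and comparisons were chosen with earlier results of these data known. The rule for naming took the 10 widest members, the 5 farthest from a gene end, the 5 fullest windows of 1 Mb, the 5 longest runs, the 10 genes with the most members and up to 3 genes per list, without predicted genes. The intervals named, the split of genes by covered length, the non-coding genes and the promoters printed were chosen after values had been seen. Base composition of whole peaks, which was planned, was not analysed here, and promoter windows inside peaks were used in its place. Of the alternatives, 7 were tried on each of 7 results, of which the last was added later. No pairing of samples applies with 1 library per group.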

Additional observations from a re-analysis of the deposited data

How the results depend on the processing

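Of 7 results under 7 alternatives, the share of marked genes next to members that were also marked in the knockout (85.5%) stayed within its interval in every one. The number of members, 2973, was 1809 with peaks within 2 kb merged and 1653 with wild-type peaks of at least 1 kb only. The share of intergenic RYBP-free peaks without a knockout peak, 65.3%, was 76.3% when 50% of the peak had to be overlapped and 53.8% with knockout and RYBP peaks widened by 1 kb. It was 73.7% with merged peaks, 56.5% without peaks under 1 kb and 60.1% with the 20994 widest H2AK119ub peaks of each genotype. The median distance to a coding gene end, 26399 bp, was 30447 bp with merged peaks and 33359 bp more than 5 kb from any gene end, which by construction leaves out nearer peaks. The share of members whose nearest coding gene was marked, 69.9%, was 71.9% at 50% overlap, 67.2% with widened peaks and 62% with merged ones. The share whose nearest other wild-type peak was retained, 38.5%, was 28.9% at 50% overlap, 44.9% with merged peaks, 47.5% with peaks of at least 1 kb, 36.4% beyond 5 kb and 43.6% with equal numbers of peaks. The share with another member within 100 kb, 83.6%, was 86.1% at 50% overlap, 79.6% with widened peaks, 71.4% with merged peaks and 77% with peaks of at least 1 kb. It was 82.1% beyond 5 kb, 85.3% with distance taken from coding gene ends only and 81% with equal numbers of peaks. Apart from the alternatives whose construction shows it, the cause of these shifts was not tested. With 1 library per group no result has a replicate check, and unknown depth limits any reading of an absent peak.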
